A study of Mus musculus with 14 samples.

Results

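Nestin-GFP cells of the mouse dentate gyrus that fell in the middle class of oxidant signal were compared with those in the low class, gene by gene. Members were chosen by the class written in each sample's title: 5 libraries labelled ROS++ and 5 labelled ROS+, 10 of the 14 libraries of the series. The other 4 libraries carry the highest class, ROS+++. They enter the filter on low levels and the shared estimate of spread. Otherwise they are given beside the results only as levels. All classes came from the dentate gyrus of untreated, normally housed mice (B6.Cg-Tg(Nes-EGFP)1Yamm), and no age or sex is stated. After enzymatic digestion the cells were sorted on GFP and on dihydroethidium fluorescence. The labels do not say whether the libraries of a class came from separate mice, so the p-values measure the spread between these libraries, which may be technical. The transgene puts GFP under regulatory elements of Nestin, an intermediate filament gene that cells of blood vessel walls can also use, so that the sort does not select neural precursors alone.

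The dentate gyrus is a part of the hippocampus where neurons are still made in the adult. Its radial glia-like stem cells are mostly quiescent and resemble astrocytes, and they give rise to dividing progenitors, neuroblasts and finally granule neurons. Dihydroethidium becomes fluorescent when superoxide and other reactive oxygen species (ROS) oxidise it. Oxidant level is known to vary with metabolic state and with position along this lineage. The series' title gives the question as gene expression in precursor classes defined by ROS content.

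The libraries held 20832009 to 25313902 reads in ROS+ and 18325361 to 23454022 in ROS++ over the 15119 genes listed. Levels are in CPM, the reads of a gene scaled to a fixed library total, and changes are differences of log2(CPM + 1), ROS++ minus ROS+, which understate the change of genes with low levels. Across genes, Pearson correlations were 0.954 to 0.967 between ROS+ libraries, 0.873 to 0.947 between ROS++ libraries and 0.753 to 0.886 between the classes. On principal components of the 10 libraries, the first (58.4% of the variance) separated the classes and ROS++ 5 stood apart on the second, at -86.1 against 2.87 to 39.3 for the other ROS++ libraries. Summed over 7 lists of cell type markers, ROS++ libraries held more of the mural (9919 to 29004 CPM against 267 to 835), microglia and macrophage (2533 to 11170 against 37.5 to 149), astrocyte and radial glia-like (13284 to 17208 against 3163 to 4889) and leptomeningeal fibroblast lists (2010.0 to 2873 against 991 to 1500.2). They held less of the neuroblast and granule neuron list (3437 to 5888 against 18636 to 24866). The oligodendrocyte sums (6544 to 14270 against 4799 to 9888) and endothelial sums (264 to 721 against 200.2 to 545) overlapped. At most 3 reads in every ROS+ library were found for 1 of the 32 microglia and macrophage markers, Cd74, and for 1 of the 15 fibroblast markers, Twist1, and for no member of the other lists. The class comparison moves with these sums, and their part in the results was not tested. In bulk RNA, fewer cells of a type and less RNA per cell cannot be told apart.

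**Figure D1:**
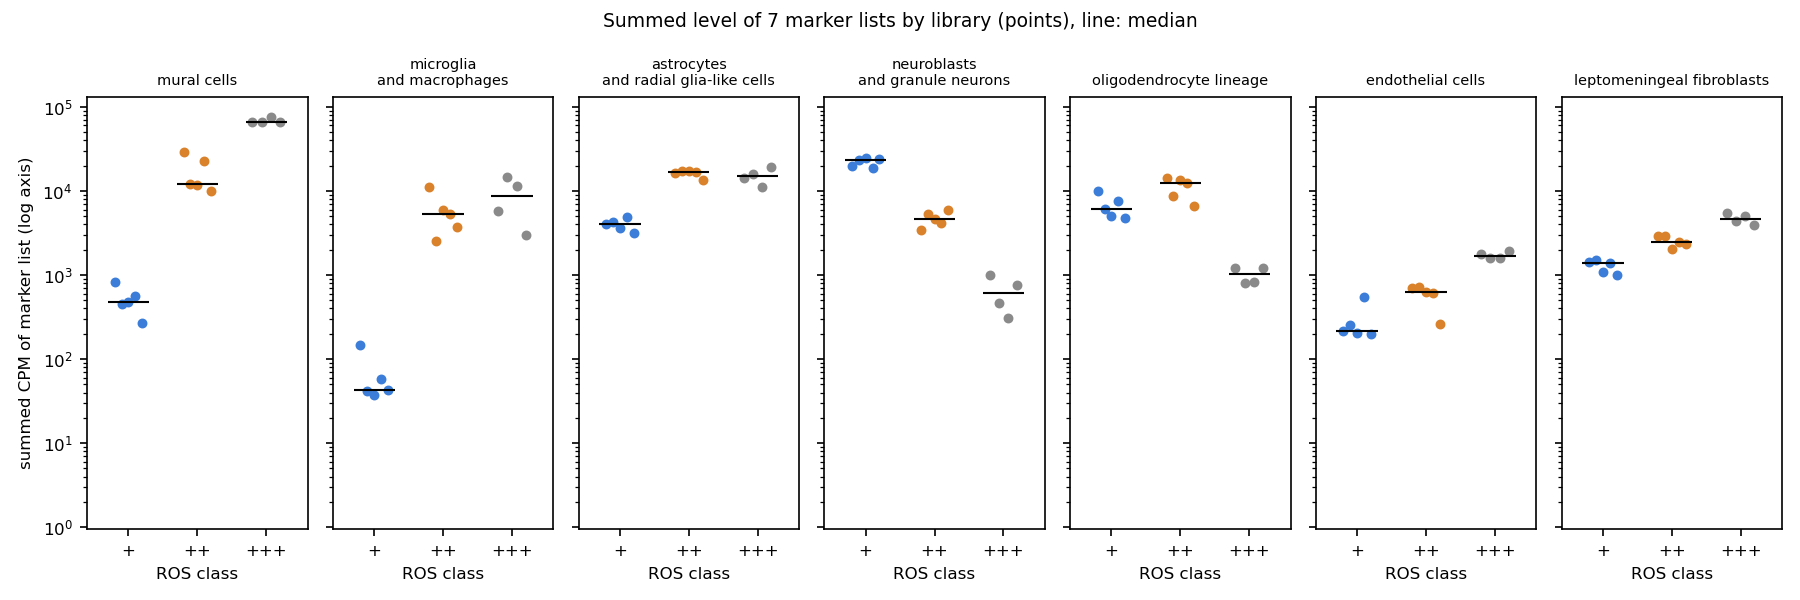
Summed CPM (log axis) of 7 marker lists in each library (points; line, median) for ROS+ (n = 5), ROS++ (n = 5) and ROS+++ (n = 4). The mural, macrophage and astrocyte sums of every ROS++ library lie above every ROS+ library, and the neuroblast sums lie below.

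Of 15102 genes tested, 4476 (29.6%) differed between the classes at an adjusted p under 0.05 by limma, 2475 (16.4%) higher and 2001 (13.2%) lower in ROS++. The class ranges did not overlap in 3476 genes (23.0%). The upward changes were larger. At least 2-fold rises were called in 1807 genes (12.0%) and falls of that size in 969 (6.42%). Among rises, 186 were at least 4 on the log2 scale, of which 54 are genes of the marker lists. Only 16 falls were that large, 7 of them markers. Gene spans were taken for protein-coding genes alone. The median was 38.3 kb for the 791 of them called at least 2-fold lower, 23.3 kb for the 1673 called at least 2-fold higher and 26.1 kb for all 13160 tested, and 26.4%, 14.8% and 15.8% of these exceeded 100 kb. Without ROS++ 5, which stood apart, 4626 genes were called, of which 4068 are among the 4476. Without ROS++ 1, which had the highest mural and macrophage sums, 3911 were called, of which 3734 are among the 4476.

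**Figure D2:**
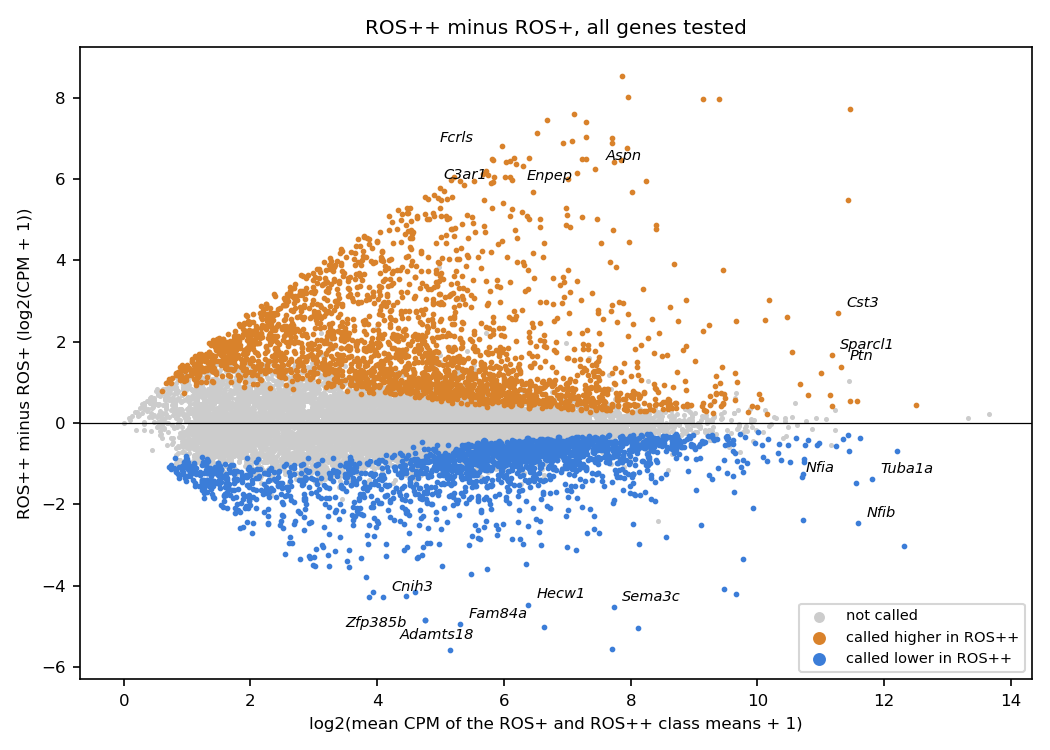
Change between ROS++ and ROS+ (log2(CPM + 1)) against the mean level for the 15102 genes tested, with the genes called higher and lower in colour. Among the genes given in the text, named outside the marker lists are the 4 largest rises, the 6 largest falls and the 6 largest differences in mean CPM. The rises reach further from 0 than the falls.

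Outside the marker lists, the 15 largest rises included Enpep, Nid1, Aspn, Fcrls and C3ar1. A gene outside these lists can still belong to one of their cell types, since the lists are short (24 mural and 32 microglia and macrophage members). Both of these sums were also higher in every ROS++ library, and their part in these rises was not tested. Enpep, the membrane peptidase aminopeptidase A, was at 2.33, 0.048, 0.0892, 1.49 and 0.0469 CPM in the ROS+ libraries and at 201, 102, 94.01, 235 and 83.5 CPM in the ROS++ libraries. Enpep was highest in ROS++ 4, with no overlap of the classes. Enpep changed by 6.38 ± 0.35 (SE, log2 scale, adjusted p = 5.93e-10), with a ROS+++ mean of 673 CPM. Proteins of the extracellular matrix were among the 15 too. Nid1, the basement membrane glycoprotein nidogen-1, went from 1.24 ± 2.10 to 126 ± 57.4 CPM (SD, n = 5 each), a change of 6.06 on the log2 scale. Aspn, a small leucine-rich proteoglycan, went from 4.63 ± 5.59 to 340.1 ± 215 CPM (SD, n = 5 each), a change of 6.26 on the log2 scale. Ggt5, a gamma-glutamyl transferase that acts on leukotriene C4, went from 0.517 ± 0.546 to 105 ± 40.1 CPM (SD, n = 5 each), a change of 6.11 on the log2 scale. Receptors known from myeloid cells were also among the 15. Fcrls, an Fc receptor-like protein of microglia, went from 0.0363 ± 0.0498 to 123 ± 52.9 CPM (SD, n = 5 each), a change of 6.81 on the log2 scale. C3ar1, the receptor of complement fragment C3a, went from 0.544 ± 0.922 to 128 ± 46.5 CPM (SD, n = 5 each), a change of 6.42 on the log2 scale. Ptafr, the receptor of platelet-activating factor, went from 0.355 ± 0.434 to 89.98 ± 41.00 CPM (SD, n = 5 each), a change of 5.95 on the log2 scale. The scavenger receptor Cd36 and the tetraspanin Cd53 belong here too. Cd36, a class B scavenger and fatty acid receptor, went from 0.0442 ± 0.0456 to 72.4 ± 26.4 CPM (SD, n = 5 each), a change of 6.04 on the log2 scale. Cxcl2, a chemokine that draws neutrophils, went from 0.498 ± 0.755 to 111 ± 69.6 CPM (SD, n = 5 each), a change of 5.94 on the log2 scale. It was at 16.2 CPM in ROS++ 2 and at 61.1 to 183 CPM in the other ROS++ libraries. By limma-voom Cxcl2 (adjusted p = 0.00052, and 2.07e-06 to 0.266 over the alternatives) and C3ar1 (adjusted p = 3.9e-06, and 2.94e-08 to 0.0837 over the alternatives) lost their calls. The interferon-inducible Ifi207, the amino acid transporter gene Slc38a11 and the membrane protein gene Tmem45a were also among the 15. Their changes were 5.71, 5.89 and 6.06 on the log2 scale.

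The 15 largest falls included Sema3c, Plxna4, Cnih3 and Hecw1. Sema3c, a secreted semaphorin that guides axons and migrating cells, was at 378, 369, 472, 317 and 486 CPM in the ROS+ libraries and at 16.9, 10.9, 34.1, 14.9 and 12.7 CPM in the ROS++ libraries. Sema3c lay below its ROS+ range in all 5 ROS++ libraries, with ROS+ 5 the highest of the 10. Sema3c had a change of -4.52 ± 0.57 on the log2 scale (SE, adjusted p = 2.36e-05) and a ROS+++ mean of 10.1 CPM. A receptor of this signalling family fell as well. Plxna4, a plexin that transduces semaphorin signals, went from 96.03 ± 14.8 to 7.72 ± 4.00 CPM (SD, n = 5 each), a change of -3.59 on the log2 scale. Genes with roles at synapses were also among them. Cnih3, a cornichon protein that accompanies AMPA receptors, went from 31.03 ± 3.51 to 1.03 ± 1.73 CPM (SD, n = 5 each), a change of -4.28 on the log2 scale. Syt2, a fast calcium sensor of vesicle release, went from 27.7 ± 11.9 to 0.734 ± 1.17 CPM (SD, n = 5 each), a change of -4.15 on the log2 scale. Other members of this group have roles in signalling and gene control. Hecw1, a HECT-type ubiquitin ligase, went from 157 ± 25.7 to 7.69 ± 6.38 CPM (SD, n = 5 each), a change of -4.46 on the log2 scale. Sphkap, an anchoring protein of protein kinase A, went from 43.9 ± 8.30 to 2.29 ± 2.58 CPM (SD, n = 5 each), a change of -4.15 on the log2 scale. Prdm8, a PR-domain transcriptional repressor, went from 16.4 ± 3.20 to 0.587 ± 0.618 CPM (SD, n = 5 each), a change of -3.52 on the log2 scale. Zfp385b, a zinc finger gene, and Fam84a were at most 1.89 and 5.20 CPM in any ROS++ library, against at least 40.6 and 43.8 CPM in ROS+. The copine Cpne9 (-4.26), Golga7b (-3.78), a partner of palmitoylation enzymes, and the actin-associated Rai14 (-3.53) were also among the 15, as was Adamts18, given with the proteases.

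By absolute level, Cst3 gained most outside the markers. Cst3, the cysteine protease inhibitor cystatin C, was at 658, 666, 571, 824 and 587 CPM in the ROS+ libraries and at 3853, 4967, 4331, 4753 and 3606 CPM in the ROS++ libraries. For Cst3 the class ranges did not meet, and ROS++ 2 was the highest library. Cst3 changed by 2.70 ± 0.12 (SE, log2 scale, adjusted p = 7.76e-11), with a ROS+++ mean of 4802 CPM. The matrix-associated proteins Sparcl1 and Sparc, the heparin-binding growth factor Ptn and the tetraspanin Tspan7 were among the 8 largest gains. Sparcl1, an astrocyte-secreted matricellular protein, went from 1102 ± 228 to 3512 ± 676 CPM (SD, n = 5 each), a change of 1.68 on the log2 scale. Ptn, pleiotrophin, went from 1414 ± 246 to 3692 ± 540.3 CPM (SD, n = 5 each), a change of 1.39 on the log2 scale. Tspan7, a membrane organiser, went from 1223 ± 103 to 2874 ± 231 CPM (SD, n = 5 each), a change of 1.23 on the log2 scale. Transcripts of the mitochondrial genome gained by less in ratio. mt-Cytb, the cytochrome b of respiratory complex III, went from 4947 ± 242 to 6694 ± 570.2 CPM (SD, n = 5 each), a change of 0.43 on the log2 scale. mt-Rnr2, the large mitochondrial ribosomal RNA, rose by 0.55. The mitochondrial protein-coding genes made up 1.57% to 1.78% of reads in ROS++ and 1.08% to 1.23% in ROS+.

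The 8 largest losses in level included Nfib, Nfia, Tuba1a and Dpysl2. Nfib, a nuclear factor I transcription factor of hippocampal development, was at 4656, 5192, 6332, 4421 and 5330.3 CPM in the ROS+ libraries and at 752, 882, 995, 986 and 1123 CPM in the ROS++ libraries. Nfib did not overlap between the classes, and ROS+ 3 was the highest library. Nfib had a change of -2.45 ± 0.19 on the log2 scale (SE, adjusted p = 9.55e-08) and a ROS+++ mean of 200.1 CPM. Nfia, its paralog, went from 4402 ± 675 to 1599.5 ± 260.3 CPM (SD, n = 5 each), a change of -1.46 on the log2 scale. A tubulin and a tubulin-binding protein were also among them. Tuba1a, an alpha-tubulin of young neurons, went from 5167 ± 365 to 2022 ± 466 CPM (SD, n = 5 each), a change of -1.38 on the log2 scale. Dpysl2, collapsin response mediator 2, which binds tubulin, went from 5853 ± 644 to 3614 ± 281 CPM (SD, n = 5 each), a change of -0.69 on the log2 scale. The actin-associated Enc1 and the phosphoinositide phosphatase gene Inpp5f lost more in ratio. Enc1, a kelch protein of neurons, went from 2802 ± 229.6 to 567 ± 215 CPM (SD, n = 5 each), a change of -2.37 on the log2 scale. Reads of Tuba1a may be shared with its near-identical paralogs, since the counting method is not given in the sources used here.

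**Figure D3:**
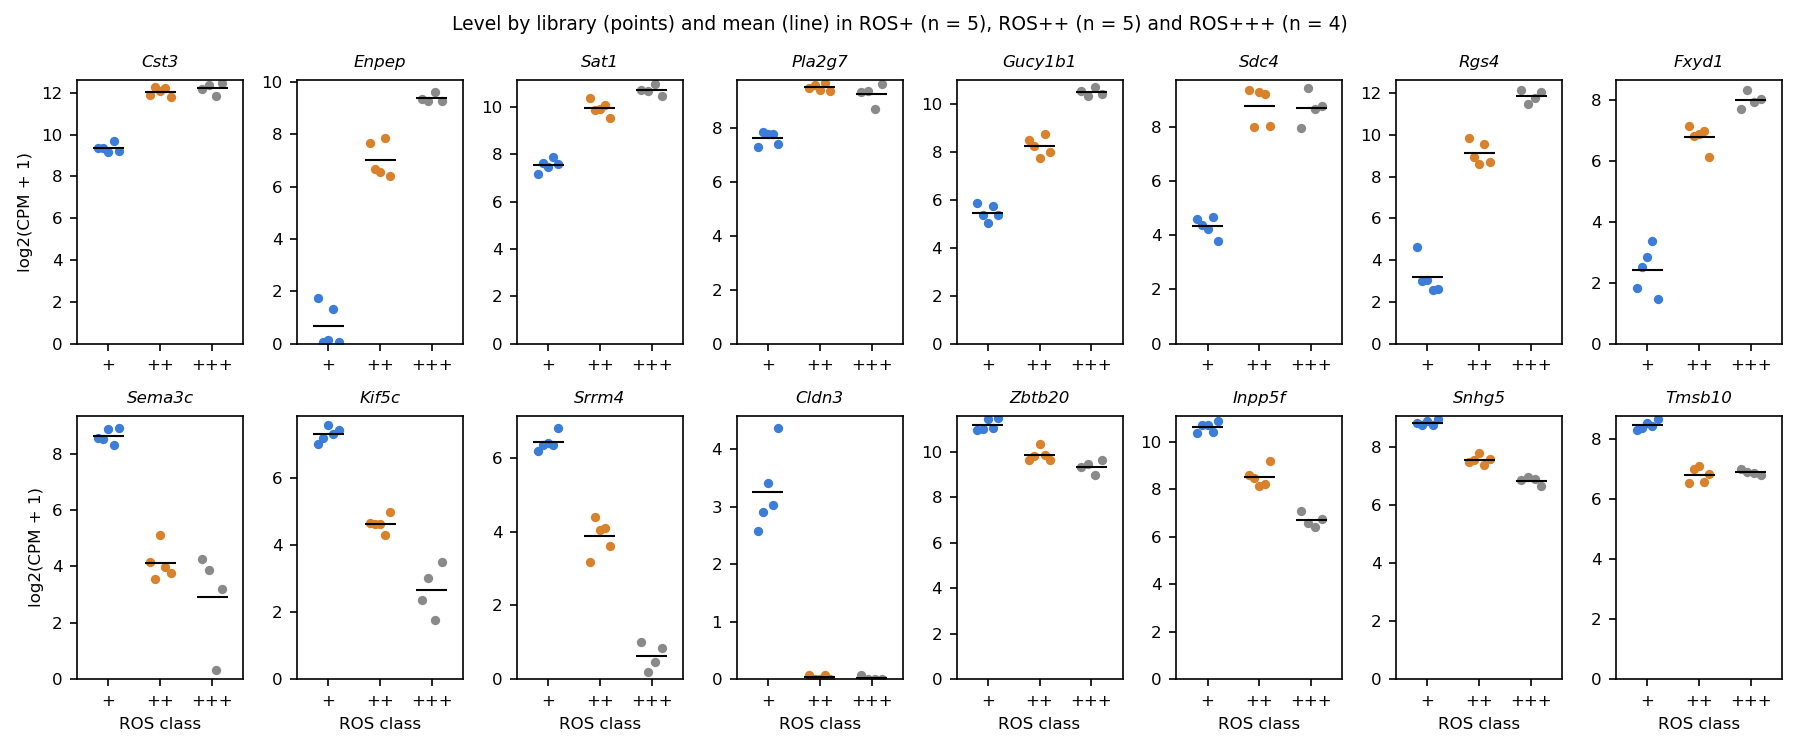
Level of 16 genes (log2(CPM + 1)) in each library (points; line, mean) of ROS+, ROS++ and ROS+++. The first 8 genes are higher and the next 8 lower in every ROS++ library than in every ROS+ library. Lack of overlap was required when these 16 genes were chosen, so this separation is no result about them.

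Pairs of related genes were read next, one form expressed broadly and the other enriched in neurons. Of 29 pairs tested, 18 neuron-enriched forms fell and 1 rose, while 7 broad forms rose and 2 fell, against 13.2% and 16.4% of all genes lower and higher. The median change was -0.99 for the neuron-enriched and 0.20 for the broad forms, beside -0.03 over all genes tested. Both forms changed in opposite directions in 2 pairs. Camk2d, a calmodulin-dependent kinase found in many tissues, was at 23.5, 36.3, 17.04, 35.9 and 27.7 CPM in the ROS+ libraries and at 117, 81.9, 88.2, 120.4 and 69.5 CPM in the ROS++ libraries. Camk2d was highest in ROS++ 4 and lowest in ROS+ 3, with no overlap of the classes. Camk2d changed by 1.75 ± 0.21 (SE, log2 scale, adjusted p = 4.06e-06), with a ROS+++ mean of 166 CPM. Camk2b, its neuronal counterpart and a marker in the neuron list, was at 56.6, 69.6, 81.4, 92.6 and 101 CPM in the ROS+ libraries and at 5.60, 30.4, 12.7, 6.03 and 16.5 CPM in the ROS++ libraries. Camk2b lay below its ROS+ range in all 5 ROS++ libraries, with ROS+ 5 the highest of the 10. Camk2b had a change of -2.63 ± 0.42 on the log2 scale (SE, adjusted p = 0.000107) and a ROS+++ mean of 8.81 CPM. The other pair encodes membrane fusion proteins. Snap25, the fusion protein of synaptic vesicles and a listed marker, fell by 1.76. Snap23, its counterpart outside the synapse, rose by 0.43, but its libraries overlapped and the call was lost in 7 alternatives (adjusted p = 0.0275, and 0.0108 to 0.0796 over the alternatives; lost without ROS+ 1, 3 or 4 or ROS++ 1, 3 or 4).

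**Figure D4:**
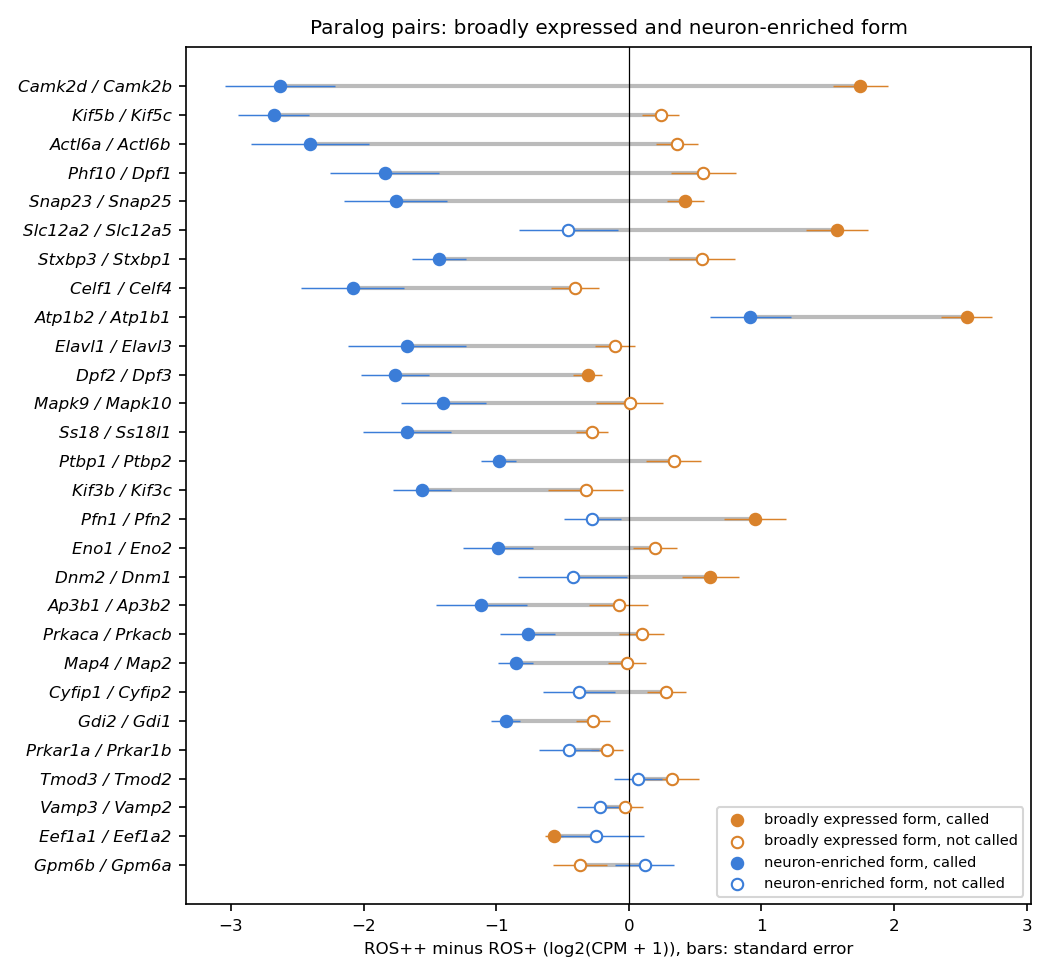
Change (log2(CPM + 1), bars: standard error) of the broad (orange) and neuron-enriched (blue) form of 28 of the 29 gene pairs, filled where called. In 26 of these 28 pairs the broad form lies to the right of the neuron-enriched form.

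The functional lists are read below by their counts and medians, with 16.4% of all genes higher, 13.2% lower and a median change of -0.03 as background. In each list the members of lowest adjusted p are named with the other members where at most 5 changed in a direction, the latter chosen after their values were seen. Lack of overlap was required of the members of lowest adjusted p and of the 15 largest changes each way. It is therefore no result about them. Every gene given by its 10 library values had no overlap between the classes.

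**Figure D5:**
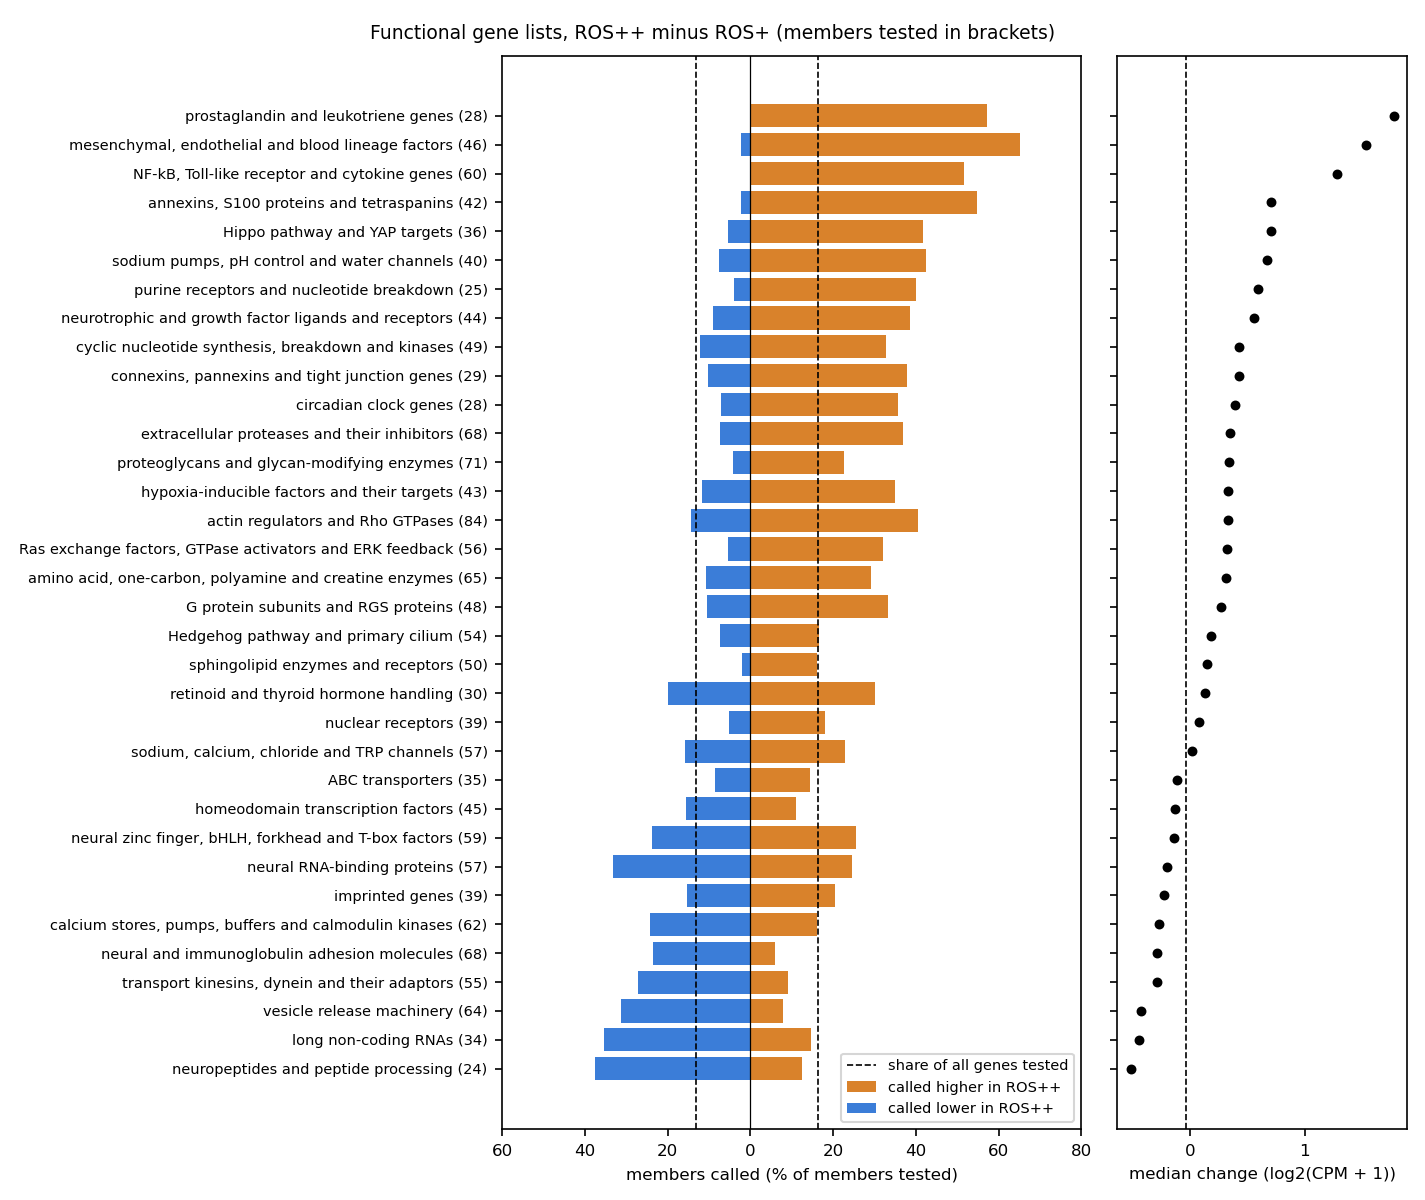
Share of each functional list's tested members (in brackets) called higher (right) or lower (left) in ROS++, and the median change of the list. Dashed lines are the shares and median over all genes tested, and the lists are ordered by median.

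In the vesicle release list 20 of 64 members fell and 5 rose (median -0.43). Syt2, at most 2.81 CPM in ROS++ and at least 14.4 in ROS+, led the falls. Syt2, named above among the largest falls, was at 21.3, 14.4, 30.1, 26.8 and 46.1 CPM in the ROS+ libraries and at 0.471, 0.107, 0.171, 2.81 and 0.109 CPM in the ROS++ libraries. For Syt2 the class ranges did not meet, and ROS+ 5 was the highest library. Syt2 changed by -4.15 ± 0.54 (SE, log2 scale, adjusted p = 1.38e-05), with a ROS+++ mean of 2.00 CPM. Cplx1, complexin-1, which clamps and triggers fusion, went from 139 ± 44.3 to 25.1 ± 15.4 CPM (SD, n = 5 each), a change of -2.52 on the log2 scale. The rises were led by Vamp8 and Stx4a. Vamp8, an endosomal and secretory fusion protein, was at 14.9, 10.7, 5.17, 13.8 and 5.35 CPM in the ROS+ libraries and at 134, 63.3, 70.99, 62.3 and 53.6 CPM in the ROS++ libraries. Vamp8 did not overlap between the classes, and ROS++ 1 was the highest library. Vamp8 had a change of 2.86 ± 0.29 on the log2 scale (SE, adjusted p = 6.61e-07) and a ROS+++ mean of 163 CPM. Stx4a, a syntaxin of the plasma membrane, went from 38.4 ± 10.1 to 75.7 ± 7.90 CPM (SD, n = 5 each), a change of 0.99 on the log2 scale. Syngr2 (1.30), Vamp5 (1.51) and Snap23 (0.43) were the others, and 3 rather than 5 rose without ROS+ 1, ROS+ 4, ROS++ 1, ROS++ 3 or ROS++ 4. Of 24 neuropeptide genes 9 fell and 3 rose (median -0.52), and with a mean of at least 5 CPM required 5 fell. Gal, galanin, a peptide that is also a listed neuroblast marker, was at 58.2, 86.6, 56.7, 59.3 and 80.2 CPM in the ROS+ libraries and at 0, 4.40, 0, 0.0511 and 0 CPM in the ROS++ libraries. For Gal the class ranges did not meet, and ROS+ 2 was the highest library. Gal changed by -5.59 ± 0.45 (SE, log2 scale, adjusted p = 4.75e-08), with a ROS+++ mean of 1.80 CPM. Galr1, a galanin receptor, went from 11.6 ± 5.53 to 0.154 ± 0.0874 CPM (SD, n = 5 each), a change of -3.35 on the log2 scale. The rises were led by Npy1r and Nts. Npy1r, a receptor of neuropeptide Y, was at 0.988, 0.816, 0, 0.512 and 1.55 CPM in the ROS+ libraries and at 40.7, 17.01, 13.05, 46.9 and 24.3 CPM in the ROS++ libraries. Npy1r lay above its ROS+ range in all 5 ROS++ libraries, with ROS++ 4 the highest of the 10. Npy1r had a change of 3.96 ± 0.37 on the log2 scale (SE, adjusted p = 2.58e-07) and a ROS+++ mean of 94.3 CPM. Nts, neurotensin, went from 0.783 ± 1.70 to 43.4 ± 29.7 CPM (SD, n = 5 each), a change of 4.74 on the log2 scale. Cpe (0.56), the peptide-trimming carboxypeptidase E, was the third.

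Of 55 kinesin, dynein and adaptor genes 15 fell and 5 rose (median -0.29). Kif5c, a neuronal kinesin-1 heavy chain, was at 130.0, 147, 192, 160.3 and 175 CPM in the ROS+ libraries and at 24.4, 23.7, 23.8, 18.7 and 31.1 CPM in the ROS++ libraries. For Kif5c the class ranges did not meet, and ROS+ 3 was the highest library. Kif5c changed by -2.68 ± 0.27 (SE, log2 scale, adjusted p = 6.53e-07), with a ROS+++ mean of 6.01 CPM. Kif3c, a kinesin-2 motor, went from 77.8 ± 8.60 to 26.5 ± 8.04 CPM (SD, n = 5 each), a change of -1.56 on the log2 scale. Nde1, a dynein regulator also used at mitosis, was at 77.7, 55.7, 60.1, 74.9 and 42.6 CPM in the ROS+ libraries and at 208, 138, 108, 129.5 and 80.3 CPM in the ROS++ libraries. Nde1 did not overlap between the classes, and ROS++ 1 was the highest library. Nde1 had a change of 1.04 ± 0.21 on the log2 scale (SE, adjusted p = 0.001) and a ROS+++ mean of 120.3 CPM. Rhot1, Miro1, which ties mitochondria to motors, went from 29.2 ± 3.44 to 50.5 ± 5.59 CPM (SD, n = 5 each), a change of 0.77 on the log2 scale. Dynlt3 (0.65), Fez2 (1.52) and Bicd2 (0.60) also rose. Among adhesion molecules 16 of 68 fell and 4 rose (median -0.29). Cntnap5a, a contactin-associated protein, was at 7.58, 17.7, 12.00, 11.04 and 19.4 CPM in the ROS+ libraries and at 0.89, 0.107, 0.0426, 0.153 and 0.109 CPM in the ROS++ libraries. Cntnap5a was highest in ROS+ 5, with no overlap of the classes. Cntnap5a changed by -3.50 ± 0.32 (SE, log2 scale, adjusted p = 2.25e-07), with a ROS+++ mean of 0.23 CPM. Islr2, a leucine-rich repeat protein of axons, went from 10.1 ± 3.52 to 0.41 ± 0.305 CPM (SD, n = 5 each), a change of -2.96 on the log2 scale. The risers were Mcam, a listed mural marker, Vcam1, Igsf11 (1.35) and Lsamp (0.52). Mcam, the adhesion molecule CD146, was at 11.4, 9.84, 4.82, 8.27 and 7.08 CPM in the ROS+ libraries and at 171, 50.98, 95.5, 148 and 33.3 CPM in the ROS++ libraries. Mcam lay above its ROS+ range in all 5 ROS++ libraries, with ROS++ 1 the highest of the 10. Mcam had a change of 3.24 ± 0.35 on the log2 scale (SE, adjusted p = 1.71e-06) and a ROS+++ mean of 287 CPM. Vcam1, an adhesion molecule also found on quiescent neural stem cells, went from 33.2 ± 12.9 to 97.3 ± 27.4 CPM (SD, n = 5 each), a change of 1.56 on the log2 scale.

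RNA-binding proteins are counted next. Of 57 members 19 fell and 14 rose (median -0.20), and the falls include neuronal splicing regulators. Srrm4, the splicing factor of neuronal microexons, was at 72.8, 80.3, 84.5, 81.5 and 112 CPM in the ROS+ libraries and at 8.07, 20.1, 15.5, 16.2 and 11.4 CPM in the ROS++ libraries. For Srrm4 the class ranges did not meet, and ROS+ 5 was the highest library. Srrm4 changed by -2.56 ± 0.28 (SE, log2 scale, adjusted p = 1.95e-06), with a ROS+++ mean of 0.579 CPM. Rbfox1, a splicing factor of mature neurons, went from 57.1 ± 10.96 to 9.81 ± 1.98 CPM (SD, n = 5 each), a change of -2.43 on the log2 scale. The rises were led by Rbpms and Zfp36l2. Rbpms, an RNA-binding protein of muscle and retinal ganglion cells, was at 0.909, 0.72, 2.19, 0.213 and 0 CPM in the ROS+ libraries and at 45.99, 11.7, 23.4, 40.9 and 16.3 CPM in the ROS++ libraries. Rbpms did not overlap between the classes, and ROS++ 1 was the highest library. Rbpms had a change of 3.93 ± 0.38 on the log2 scale (SE, adjusted p = 4.76e-07) and a ROS+++ mean of 87.6 CPM. Zfp36l2, a zinc finger protein that promotes mRNA decay, went from 15.3 ± 3.32 to 44.6 ± 5.24 CPM (SD, n = 5 each), a change of 1.50 on the log2 scale. Long non-coding RNAs showed 12 falls and 5 rises of 34 (median -0.45). Snhg5, a small nucleolar RNA host, was at 448, 432, 465, 424 and 494 CPM in the ROS+ libraries and at 176, 187, 218, 162 and 189 CPM in the ROS++ libraries. Snhg5 was highest in ROS+ 5 and lowest in ROS++ 4, with no overlap of the classes. Snhg5 changed by -1.28 ± 0.10 (SE, log2 scale, adjusted p = 4.17e-08), with a ROS+++ mean of 113 CPM. Zfas1, another such host, went from 183 ± 27.3 to 64.3 ± 10.8 CPM (SD, n = 5 each), a change of -1.50 on the log2 scale. Neat1, the scaffold of paraspeckles, was at 13.9, 13.4, 21.5, 41.1 and 37.3 CPM in the ROS+ libraries and at 266, 133, 319.7, 237 and 136 CPM in the ROS++ libraries. Neat1 lay above its ROS+ range in all 5 ROS++ libraries, with ROS++ 3 the highest of the 10. Neat1 had a change of 3.11 ± 0.33 on the log2 scale (SE, adjusted p = 2.18e-06) and a ROS+++ mean of 348 CPM. Snhg18, a small nucleolar RNA host, went from 9.15 ± 3.98 to 50.5 ± 23.9 CPM (SD, n = 5 each), a change of 2.29 on the log2 scale. Mir22hg (1.78), Pantr1 (0.99) and Lncpint (1.22) rose as well.

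Transcription factors are given by family. Neural zinc finger, bHLH, forkhead and T-box factors had 15 rises and 14 falls of 59, and 27 had libraries that did not overlap, against 23.0% of all genes (median -0.14). Zbtb20, a repressor that sets hippocampal neuron identity, was at 2017, 2058, 2829, 2150.2 and 2845 CPM in the ROS+ libraries and at 795, 906, 1292, 945 and 799 CPM in the ROS++ libraries. For Zbtb20 the class ranges did not meet, and ROS+ 5 was the highest library. Zbtb20 changed by -1.33 ± 0.15 (SE, log2 scale, adjusted p = 1.64e-06), with a ROS+++ mean of 659.9 CPM. Tcf4, an E protein that pairs with bHLH factors, went from 1929.5 ± 247 to 985 ± 110.3 CPM (SD, n = 5 each), a change of -0.97 on the log2 scale. Mef2c was counted in this list although it is a MADS-box factor, found in neurons, muscle and microglia. It was at 18.8, 29.2, 29.8, 26.4 and 28.9 CPM in the ROS+ libraries and at 246, 96.3, 161, 208 and 97.1 CPM in the ROS++ libraries. Mef2c did not overlap between the classes, and ROS++ 1 was the highest library. Mef2c had a change of 2.47 ± 0.22 on the log2 scale (SE, adjusted p = 2.15e-07) and a ROS+++ mean of 454 CPM. Zic4, a zinc finger factor of the Zic family, went from 1.47 ± 0.719 to 48.2 ± 31.1 CPM (SD, n = 5 each), a change of 4.18 on the log2 scale. Homeodomain factors gave 5 rises and 7 falls of 45 (median -0.13), near the background. Satb1, a chromatin organiser, was at 51.3, 60.7, 61.3, 70.6 and 63.3 CPM in the ROS+ libraries and at 28.8, 21.5, 24.2, 19.7 and 23.6 CPM in the ROS++ libraries. Satb1 was highest in ROS+ 4 and lowest in ROS++ 4, with no overlap of the classes. Satb1 changed by -1.35 ± 0.23 (SE, log2 scale, adjusted p = 0.000205), with a ROS+++ mean of 5.09 CPM. Prox1, the granule neuron identity factor, a listed marker, went from 269 ± 72.1 to 45.4 ± 23.96 CPM (SD, n = 5 each), a change of -2.71 on the log2 scale. Zfhx3, a large zinc finger homeodomain factor, was at 58.4, 71.7, 35.2, 48.4 and 42.1 CPM in the ROS+ libraries and at 401, 176, 208, 364 and 167 CPM in the ROS++ libraries. Zfhx3 lay above its ROS+ range in all 5 ROS++ libraries, with ROS++ 1 the highest of the 10. Zfhx3 had a change of 2.28 ± 0.23 on the log2 scale (SE, adjusted p = 8.92e-07) and a ROS+++ mean of 732 CPM. Six5, a sine oculis-related factor, went from 0.41 ± 0.455 to 5.41 ± 2.21 CPM (SD, n = 5 each), a change of 2.15 on the log2 scale. Pax6 (1.17), Prrx1 (0.93) and Tgif1 (1.00) rose too. The mesenchymal, endothelial and blood lineage factors rose in 30 of 46 (median 1.54), 26 of them outside the marker lists. Foxs1, a forkhead factor of pericytes, was at 4.07, 0.048, 1.43, 0.597 and 0 CPM in the ROS+ libraries and at 113, 44.97, 53.1, 95.1 and 27.4 CPM in the ROS++ libraries. For Foxs1 the class ranges did not meet, and ROS++ 1 was the highest library. Foxs1 changed by 5.03 ± 0.42 (SE, log2 scale, adjusted p = 7.04e-08), with a ROS+++ mean of 343 CPM. Heyl, a Notch target and listed mural marker, went from 7.44 ± 5.23 to 242 ± 149 CPM (SD, n = 5 each), a change of 4.86 on the log2 scale. The 1 that fell, Stat3 (-0.62), lost its call in 6 alternatives (adjusted p = 0.0349, and 0.0208 to 0.0887 over the alternatives; lost without ROS+ 4 or 5 or ROS++ 2 or 5), while 2 fell without ROS++ 1. The mural sum was also higher in ROS++ (9919 to 29004 CPM against 267 to 835), and its part in these counts was not tested. Foxs1 and the mural sum were both highest in ROS++ 1 and lowest in ROS++ 5 among the ROS++ libraries. Without ROS++ 1 30 members rose, and without ROS++ 5 34 rose.

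Of 62 genes of calcium stores, pumps, buffers and calmodulin kinases 15 fell and 10 rose (median -0.27), the share of rises being near the background. Calm2, a calmodulin gene, was at 1654, 1621, 1590.0, 1458 and 1663 CPM in the ROS+ libraries and at 990.0, 1129, 794, 876 and 1000.5 CPM in the ROS++ libraries. Calm2 did not overlap between the classes, and ROS+ 5 was the highest library. Calm2 had a change of -0.75 ± 0.10 on the log2 scale (SE, adjusted p = 1.54e-05) and a ROS+++ mean of 986 CPM. Casq2 and Atp2a3 led the rises. Casq2, calsequestrin of the sarcoplasmic reticulum, a listed mural marker, was at 1.26, 0.144, 0.223, 1.88 and 0.751 CPM in the ROS+ libraries and at 469.6, 285, 212, 377 and 209 CPM in the ROS++ libraries. Casq2 was highest in ROS++ 1, with no overlap of the classes. Casq2 changed by 7.41 ± 0.26 (SE, log2 scale, adjusted p = 3.29e-12), with a ROS+++ mean of 1622 CPM. Atp2a3, a calcium pump of the endoplasmic reticulum, went from 2.44 ± 1.53 to 135 ± 62.9 CPM (SD, n = 5 each), a change of 5.27 on the log2 scale. Ion channels gave 13 rises and 9 falls of 57 (median 0.01), and 14 falls when only the 10 libraries were fitted. Trpc4, a cation channel gated through receptors, was at 4.62, 3.98, 7.18, 5.50 and 2.86 CPM in the ROS+ libraries and at 47.1, 26.3, 31.00, 59.2 and 29.6 CPM in the ROS++ libraries. Trpc4 lay above its ROS+ range in all 5 ROS++ libraries, with ROS++ 4 the highest of the 10. Trpc4 had a change of 2.74 ± 0.26 on the log2 scale (SE, adjusted p = 3.85e-07) and a ROS+++ mean of 218 CPM. Ano1, a calcium-activated chloride channel, went from 3.42 ± 2.06 to 94.9 ± 59.2 CPM (SD, n = 5 each), a change of 4.22 on the log2 scale. Cacng2, stargazin, which escorts AMPA receptors, was at 7.35, 8.11, 13.96, 7.50 and 11.6 CPM in the ROS+ libraries and at 0.21, 1.88, 0.853, 0.0511 and 0.0546 CPM in the ROS++ libraries. For Cacng2 the class ranges did not meet, and ROS+ 3 was the highest library. Cacng2 changed by -2.81 ± 0.38 (SE, log2 scale, adjusted p = 2.21e-05), with a ROS+++ mean of 0.763 CPM. Scn3b, a sodium channel beta subunit, went from 78.4 ± 7.09 to 18.8 ± 10.1 CPM (SD, n = 5 each), a change of -2.14 on the log2 scale. Scn3b lost its call on the log2 values as deposited (adjusted p = 0.000421, and 1.68e-05 to 0.0697 over the alternatives).

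Ion pumps and transporters rose in 17 of 40 (median 0.67). Fxyd1, phospholemman, a pump regulator, was at 2.53, 4.70, 6.24, 9.25 and 1.78 CPM in the ROS+ libraries and at 142, 112, 116, 127 and 69.8 CPM in the ROS++ libraries. Fxyd1 did not overlap between the classes, and ROS++ 1 was the highest library. Fxyd1 had a change of 4.39 ± 0.30 on the log2 scale (SE, adjusted p = 5.96e-09) and a ROS+++ mean of 258 CPM. Fxyd6, a pump regulator of the same family, was at 956, 1034, 1045, 959 and 1109 CPM in the ROS+ libraries and at 296, 527, 373, 423 and 630.4 CPM in the ROS++ libraries. Fxyd6 was highest in ROS+ 5 and lowest in ROS++ 1, with no overlap of the classes. Fxyd6 changed by -1.23 ± 0.34 (SE, log2 scale, adjusted p = 0.0129), with a ROS+++ mean of 27.5 CPM. Slc4a7, a sodium bicarbonate transporter, and Car12 (-1.15), a carbonic anhydrase, also fell, by 0.68 for Slc4a7. Without ROS+ 2, ROS+ 3, ROS+ 4 or ROS++ 1 only 1 member fell, and 5 fell when the 10 libraries were fitted alone, Slc4a7 being lost without ROS+ 2, 3, 4 or 5 or ROS++ 1 (adjusted p = 0.028, and 0.00419 to 0.0745 over the alternatives). Junction genes rose in 11 of 29 and fell in 3, Gjd2 (-1.05) and Ocln (-0.97) being called beside Cldn3 (median 0.43; 1 fell with a mean of at least 5 CPM required). Gjc1, a connexin of gap junctions, was at 11.3, 6.38, 5.49, 7.97 and 5.25 CPM in the ROS+ libraries and at 159.8, 74.2, 74.9, 112 and 58.5 CPM in the ROS++ libraries. Gjc1 lay above its ROS+ range in all 5 ROS++ libraries, with ROS++ 1 the highest of the 10. Gjc1 had a change of 3.50 ± 0.24 on the log2 scale (SE, adjusted p = 8.61e-09) and a ROS+++ mean of 434 CPM. Gja4, a connexin of vessel walls, went from 8.98 ± 7.06 to 252 ± 109.5 CPM (SD, n = 5 each), a change of 4.82 on the log2 scale. Cldn3, a claudin of tight junctions, was at 4.98, 6.48, 9.68, 7.20 and 19.7 CPM in the ROS+ libraries and at 0.0524, 0, 0, 0.0511 and 0 CPM in the ROS++ libraries. For Cldn3 the class ranges did not meet, and ROS+ 5 was the highest library. Cldn3 changed by -3.23 ± 0.32 (SE, log2 scale, adjusted p = 5.9e-07), with a ROS+++ mean of 0.0119 CPM. ABC transporters rose in 5 of 35 and fell in 3, shares near the background (median -0.11). Abcc9, a sulfonylurea receptor and a listed mural marker, was at 4.78, 1.15, 1.03, 1.19 and 2.86 CPM in the ROS+ libraries and at 558, 232, 231, 341 and 121 CPM in the ROS++ libraries. Abcc9 did not overlap between the classes, and ROS++ 1 was the highest library. Abcc9 had a change of 6.49 ± 0.34 on the log2 scale (SE, adjusted p = 8.51e-10) and a ROS+++ mean of 1040.1 CPM. Abca9, a lipid transporter, went from 2.02 ± 1.75 to 35.6 ± 12.7 CPM (SD, n = 5 each), a change of 3.77 on the log2 scale. Abca8a (3.34), Abcc3 (1.80) and Abca2 (0.82) rose with them. Abcc8, the other sulfonylurea receptor, was at 22.6, 18.5, 26.1, 15.8 and 32.1 CPM in the ROS+ libraries and at 4.40, 2.68, 0.171, 0.0511 and 1.80 CPM in the ROS++ libraries. Abcc8 was highest in ROS+ 5, with no overlap of the classes. Abcc8 changed by -3.33 ± 0.43 (SE, log2 scale, adjusted p = 1.17e-05), with a ROS+++ mean of 0.162 CPM. Abce1 (-0.49) and Abcf1 (-0.41) fell slightly. Abce1 was lost in 6 alternatives (adjusted p = 0.0257, and 0.0173 to 0.0753 over the alternatives; lost without ROS+ 1 or 2 or ROS++ 3 or 4), and the falls numbered 1 to 6 across settings, with 6 without ROS++ 5.

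Growth factor ligand and receptor genes rose in 17 of 44, 16 of them outside the marker lists, and fell in 4 (median 0.56). Csf1r, the receptor of macrophage colony stimulating factor, a listed macrophage marker, was at 0.316, 0.912, 0.0892, 1.24 and 0.0469 CPM in the ROS+ libraries and at 132, 63.3, 177, 143 and 152 CPM in the ROS++ libraries. Csf1r lay above its ROS+ range in all 5 ROS++ libraries, with ROS++ 3 the highest of the 10. Csf1r had a change of 6.46 ± 0.41 on the log2 scale (SE, adjusted p = 2.59e-09) and a ROS+++ mean of 98.9 CPM. A ligand of it rose too. Il34, a cytokine of microglial survival, went from 1.79 ± 1.74 to 76.7 ± 36.7 CPM (SD, n = 5 each), a change of 4.90 on the log2 scale. Angpt1, angiopoietin 1, the ligand of TIE2, was at 25.5, 34.8, 48.8, 27.2 and 32.9 CPM in the ROS+ libraries and at 17.4, 7.57, 8.70, 16.5 and 6.49 CPM in the ROS++ libraries. For Angpt1 the class ranges did not meet, and ROS+ 3 was the highest library. Angpt1 changed by -1.56 ± 0.29 (SE, log2 scale, adjusted p = 0.000526), with a ROS+++ mean of 22.8 CPM. Ntf3, neurotrophin 3, went from 14.4 ± 4.22 to 1.28 ± 1.74 CPM (SD, n = 5 each), a change of -3.05 on the log2 scale. Kitl (-2.44), the KIT ligand, and Ntrk3 (-1.05), the receptor of neurotrophin 3, were the others that fell. Purine genes rose in 10 of 25 (median 0.59), 8 of them outside the marker lists. P2ry14, the UDP-glucose receptor, a listed mural marker, was at 49.5, 39.4, 51.8, 49.2 and 42.8 CPM in the ROS+ libraries and at 1343, 655, 476, 973 and 439.9 CPM in the ROS++ libraries. P2ry14 did not overlap between the classes, and ROS++ 1 was the highest library. P2ry14 had a change of 3.91 ± 0.23 on the log2 scale (SE, adjusted p = 3.96e-09) and a ROS+++ mean of 3296 CPM. Adk, adenosine kinase, which removes adenosine, went from 154 ± 11.8 to 319 ± 40.96 CPM (SD, n = 5 each), a change of 1.04 on the log2 scale. Slc29a1, an equilibrative nucleoside transporter, the only member called lower, was at 213, 228, 262, 202 and 263 CPM in the ROS+ libraries and at 115, 116, 73.9, 103 and 87.2 CPM in the ROS++ libraries. Slc29a1 was highest in ROS+ 5 and lowest in ROS++ 3, with no overlap of the classes. Slc29a1 changed by -1.24 ± 0.20 (SE, log2 scale, adjusted p = 0.000111), with a ROS+++ mean of 94.4 CPM.

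G protein genes rose in 16 of 48 and fell in 5 (median 0.27). Rgs4, a GTPase activator that ends Gq and Gi signals, was at 24.1, 7.06, 7.36, 4.95 and 5.11 CPM in the ROS+ libraries and at 921, 491, 388, 754 and 409.9 CPM in the ROS++ libraries. Rgs4 lay above its ROS+ range in all 5 ROS++ libraries, with ROS++ 1 the highest of the 10. Rgs4 had a change of 5.95 ± 0.36 on the log2 scale (SE, adjusted p = 1.75e-08) and a ROS+++ mean of 3804 CPM. Gng11, a gamma subunit, went from 20.8 ± 7.71 to 166 ± 48.98 CPM (SD, n = 5 each), a change of 2.97 on the log2 scale. Gnb1, the common beta-1 subunit, was at 3564, 3380.0, 3667, 2973 and 3596 CPM in the ROS+ libraries and at 2276, 1826, 2137, 2176 and 2184 CPM in the ROS++ libraries. For Gnb1 the class ranges did not meet, and ROS+ 3 was the highest library. Gnb1 changed by -0.70 ± 0.07 (SE, log2 scale, adjusted p = 1.05e-06), with a ROS+++ mean of 1751 CPM. Gng2, a gamma subunit of neurons, went from 249 ± 45.3 to 105 ± 19.9 CPM (SD, n = 5 each), a change of -1.24 on the log2 scale. Gnb5 (-1.12), Gnaq (-1.11) and Gng7 (-0.89) also fell. Cyclic nucleotide genes had 16 rises and 6 falls of 49 (median 0.43). Gucy1b1, a subunit of the nitric oxide receptor guanylyl cyclase, was at 56.3, 39.4, 31.3, 51.5 and 40.2 CPM in the ROS+ libraries and at 360.0, 302, 211, 425 and 253 CPM in the ROS++ libraries. Gucy1b1 did not overlap between the classes, and ROS++ 4 was the highest library. Gucy1b1 had a change of 2.78 ± 0.18 on the log2 scale (SE, adjusted p = 3.15e-09) and a ROS+++ mean of 1438 CPM. Pde8b, a cAMP phosphodiesterase, went from 51.5 ± 8.25 to 245 ± 65.7 CPM (SD, n = 5 each), a change of 2.20 on the log2 scale. Pkia, an inhibitor of protein kinase A, was at 309.8, 397, 454, 295 and 391 CPM in the ROS+ libraries and at 131, 149, 159, 182 and 147 CPM in the ROS++ libraries. Pkia was highest in ROS+ 3 and lowest in ROS++ 1, with no overlap of the classes. Pkia changed by -1.25 ± 0.14 (SE, log2 scale, adjusted p = 1.99e-06), with a ROS+++ mean of 70.01 CPM. Pde9a, a cGMP phosphodiesterase, went from 77.5 ± 21.3 to 26.3 ± 9.62 CPM (SD, n = 5 each), a change of -1.55 on the log2 scale. In the Ras list 18 of 56 rose (median 0.32). Rasl12, a Ras-like GTPase, was at 19.99, 29.2, 32.3, 31.7 and 21.1 CPM in the ROS+ libraries and at 180.3, 81.2, 72.5, 161 and 93.5 CPM in the ROS++ libraries. Rasl12 lay above its ROS+ range in all 5 ROS++ libraries, with ROS++ 1 the highest of the 10. Rasl12 had a change of 2.02 ± 0.24 on the log2 scale (SE, adjusted p = 4.57e-06) and a ROS+++ mean of 409 CPM. Rras, R-Ras, went from 0.877 ± 0.611 to 13.7 ± 6.82 CPM (SD, n = 5 each), a change of 2.92 on the log2 scale. Nras fell. Nras, the classical GTPase N-Ras, was at 936, 935, 876, 690.1 and 792 CPM in the ROS+ libraries and at 563, 582, 608, 539.6 and 621 CPM in the ROS++ libraries. For Nras the class ranges did not meet, and ROS+ 1 was the highest library. Nras changed by -0.53 ± 0.09 (SE, log2 scale, adjusted p = 0.000238), with a ROS+++ mean of 324 CPM. Rap2b (-0.73) and Sos1 (-0.69), a Ras exchange factor, fell as well.

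Of 28 prostaglandin and leukotriene genes 16 rose and 12 were not called, and 16 of the 28 had libraries that did not overlap, against 23.0% of all genes (median 1.78). Without ROS++ 1, 1 member fell. Pla2g7, the enzyme that degrades platelet-activating factor, was at 155, 229.8, 217, 219.8 and 169 CPM in the ROS+ libraries and at 719.6, 782, 685, 813 and 663 CPM in the ROS++ libraries. Pla2g7 did not overlap between the classes, and ROS++ 4 was the highest library. Pla2g7 had a change of 1.89 ± 0.15 on the log2 scale (SE, adjusted p = 3.49e-08) and a ROS+++ mean of 628 CPM. Cysltr2, a cysteinyl leukotriene receptor, went from 0.0443 ± 0.0619 to 23.4 ± 13.2 CPM (SD, n = 5 each), a change of 4.35 on the log2 scale. Innate immune genes rose in 31 of 60 (median 1.28). Ly86, MD-1, the partner of RP105, was at 0.0395, 1.30, 0, 0.0426 and 0.469 CPM in the ROS+ libraries and at 33.3, 34.7, 36.1, 40.99 and 25.4 CPM in the ROS++ libraries. Ly86 was highest in ROS++ 4, with no overlap of the classes. Ly86 changed by 4.74 ± 0.39 (SE, log2 scale, adjusted p = 5.18e-08), with a ROS+++ mean of 52.02 CPM. Il10ra, a chain of an interleukin receptor, went from 0.105 ± 0.0637 to 21.97 ± 10.8 CPM (SD, n = 5 each), a change of 4.20 on the log2 scale. The microglia and macrophage sum was also higher in ROS++ (2533 to 11170 CPM against 37.5 to 149), as was the mural sum (9919 to 29004 CPM against 267 to 835). The part of either sum in these lists was not tested. Within ROS++, Il10ra was lowest in ROS++ 2 (6.22 CPM), where the macrophage sum was lowest, and highest in ROS++ 1 (36.2 CPM), where that sum was highest. Cysltr2 was lowest in ROS++ 3 (7.08 CPM), and Ly86 lay between 25.4 and 41.0 CPM in all 5. Sphingolipid genes rose in 8 of 50 (median 0.15), a share like the background, and Cers6 (-1.47), a ceramide synthase, fell, with 2 falls without ROS+ 1 or ROS++ 2. S1pr3, a sphingosine-1-phosphate receptor, was at 3.40, 6.10, 7.18, 6.14 and 0.516 CPM in the ROS+ libraries and at 217, 139, 121, 206 and 125 CPM in the ROS++ libraries. S1pr3 lay above its ROS+ range in all 5 ROS++ libraries, with ROS++ 1 the highest of the 10. S1pr3 had a change of 5.02 ± 0.35 on the log2 scale (SE, adjusted p = 1.65e-08) and a ROS+++ mean of 719 CPM. Plpp3, a lipid phosphate phosphatase and listed astrocyte marker, went from 92.1 ± 27.4 to 405 ± 106 CPM (SD, n = 5 each), a change of 2.14 on the log2 scale.

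Actin regulation was the largest list, with 34 of 84 members higher and 12 lower (median 0.33), or 7 lower with no trend and no robust moderation. Arhgdib, a GDP dissociation inhibitor of blood cells, was at 6.40, 1.39, 2.72, 5.16 and 2.58 CPM in the ROS+ libraries and at 258, 128, 115, 211 and 78.4 CPM in the ROS++ libraries. For Arhgdib the class ranges did not meet, and ROS++ 1 was the highest library. Arhgdib changed by 5.08 ± 0.31 (SE, log2 scale, adjusted p = 2.26e-09), with a ROS+++ mean of 583 CPM. Rhoj, a Cdc42-related GTPase of vessels, went from 5.97 ± 2.26 to 42.2 ± 16.2 CPM (SD, n = 5 each), a change of 2.61 on the log2 scale. Tmsb10, thymosin beta-10, which binds actin monomers, was at 313, 329, 372, 345 and 409 CPM in the ROS+ libraries and at 90.9, 127, 137, 95.01 and 114 CPM in the ROS++ libraries. Tmsb10 did not overlap between the classes, and ROS+ 5 was the highest library. Tmsb10 had a change of -1.65 ± 0.12 on the log2 scale (SE, adjusted p = 2.03e-08) and a ROS+++ mean of 118 CPM. Elmo1, an engulfment adaptor that activates Rac, went from 329 ± 33.4 to 89.9 ± 44.1 CPM (SD, n = 5 each), a change of -1.97 on the log2 scale. Hippo pathway members rose in 15 of 36 (median 0.71). Axl, a receptor kinase of apoptotic cell recognition, counted as a YAP target, was at 17.3, 21.8, 15.7, 9.38 and 8.35 CPM in the ROS+ libraries and at 223, 92.9, 140.0, 168 and 99.4 CPM in the ROS++ libraries. Axl was highest in ROS++ 1 and lowest in ROS+ 5, with no overlap of the classes. Axl changed by 3.24 ± 0.26 (SE, log2 scale, adjusted p = 5.3e-08), with a ROS+++ mean of 335 CPM. Ajuba, a LIM protein that restrains LATS kinases, went from 1.26 ± 1.84 to 33.1 ± 18.2 CPM (SD, n = 5 each), a change of 4.00 on the log2 scale. Fat4, a giant cadherin upstream of Hippo, was at 26.2, 36.6, 28.3, 29.1 and 38.8 CPM in the ROS+ libraries and at 2.78, 12.99, 7.42, 4.40 and 20.6 CPM in the ROS++ libraries. Fat4 lay below its ROS+ range in all 5 ROS++ libraries, with ROS+ 5 the highest of the 10. Fat4 had a change of -1.89 ± 0.43 on the log2 scale (SE, adjusted p = 0.00264) and a ROS+++ mean of 2.71 CPM. Taok3 (-0.91) fell as well, and the falls numbered 1 to 4 across settings, with 1 left without ROS+ 3, ROS+ 4, ROS+ 5, ROS++ 1 or ROS++ 4. Annexins, S100 proteins and tetraspanins rose in 23 of 42 (median 0.71). Cd53, a tetraspanin of blood cells, was at 0, 0, 0, 0.0426 and 1.08 CPM in the ROS+ libraries and at 136, 48.1, 62.6, 71.7 and 64.3 CPM in the ROS++ libraries. For Cd53 the class ranges did not meet, and ROS++ 1 was the highest library. Cd53 changed by 5.96 ± 0.38 (SE, log2 scale, adjusted p = 3.12e-09), with a ROS+++ mean of 95.4 CPM. Anxa5, an annexin that binds phosphatidylserine, went from 28.5 ± 14.5 to 404 ± 173 CPM (SD, n = 5 each), a change of 3.83 on the log2 scale. Tspan5 (-0.79) was the 1 that fell, and it lost its call without ROS+ 3, ROS+ 5 or ROS++ 4, while 2 fell without ROS++ 5.

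Extracellular proteases and inhibitors rose in 25 of 68 and fell in 5 (median 0.34; 3 fell with a mean of at least 5 CPM required). Cst3 and Enpep, given above, led the rises. Adamts18, a secreted metalloprotease, was at 36.9, 44.5, 62.8, 50.9 and 58.4 CPM in the ROS+ libraries and at 0, 2.31, 1.15, 1.33 and 0.0546 CPM in the ROS++ libraries. Adamts18 did not overlap between the classes, and ROS+ 3 was the highest library. Adamts18 had a change of -4.84 ± 0.36 on the log2 scale (SE, adjusted p = 2.01e-08) and a ROS+++ mean of 0.252 CPM. Mmp24, a membrane-type metalloprotease of neurons, went from 8.60 ± 2.24 to 1.89 ± 1.48 CPM (SD, n = 5 each), a change of -1.89 on the log2 scale. Spint2 (-2.11), Adam22 (-0.95) and Adamts6 (-0.92) also fell. Proteoglycan and glycan genes rose in 16 of 71 (median 0.34). Sdc4, a cell surface heparan sulfate proteoglycan, was at 23.1, 19.5, 17.9, 24.7 and 12.9 CPM in the ROS+ libraries and at 664, 256, 633, 600.4 and 260.4 CPM in the ROS++ libraries. Sdc4 was highest in ROS++ 1 and lowest in ROS+ 5, with no overlap of the classes. Sdc4 changed by 4.46 ± 0.31 (SE, log2 scale, adjusted p = 2.08e-08), with a ROS+++ mean of 446 CPM. Gpc3, a glypican, went from 2.59 ± 1.91 to 88.4 ± 41.7 CPM (SD, n = 5 each), a change of 4.69 on the log2 scale. St8sia2, a polysialic acid synthase of NCAM, was at 23.9, 33.3, 43.7, 31.7 and 33.7 CPM in the ROS+ libraries and at 0.21, 8.21, 12.7, 9.91 and 11.2 CPM in the ROS++ libraries. St8sia2 lay below its ROS+ range in all 5 ROS++ libraries, with ROS+ 3 the highest of the 10. St8sia2 had a change of -2.21 ± 0.54 on the log2 scale (SE, adjusted p = 0.00436) and a ROS+++ mean of 0.609 CPM. Mgat5b fell by 1.05 and Chst10 (-1.02) was the third. Mgat5b was lost in 10 alternatives (adjusted p = 0.0416, and 0.014 to 0.189 over the alternatives; lost without ROS+ 1, 3, 4 or 5 or ROS++ 1, 3 or 4), and 1 to 6 members fell across settings, with 1 left without ROS+ 1, ROS+ 3 or ROS+ 5 and 5 without ROS++ 5.

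Amino acid, polyamine and creatine enzymes had 19 rises and 7 falls of 65 (median 0.31). Sat1, spermidine/spermine acetyltransferase, which breaks down polyamines, was at 144, 200.0, 176, 235 and 194 CPM in the ROS+ libraries and at 1331, 952, 965, 1100.1 and 743 CPM in the ROS++ libraries. For Sat1 the class ranges did not meet, and ROS++ 1 was the highest library. Sat1 changed by 2.41 ± 0.15 (SE, log2 scale, adjusted p = 1.73e-09), with a ROS+++ mean of 1686 CPM. Ass1, argininosuccinate synthase, went from 1.63 ± 0.853 to 68.4 ± 13.1 CPM (SD, n = 5 each), a change of 4.77 on the log2 scale. Ddah2, an enzyme that removes asymmetric dimethylarginine, was at 251, 215, 313, 325 and 430.3 CPM in the ROS+ libraries and at 72.8, 141, 128, 131 and 173 CPM in the ROS++ libraries. Ddah2 did not overlap between the classes, and ROS+ 5 was the highest library. Ddah2 had a change of -1.25 ± 0.24 on the log2 scale (SE, adjusted p = 0.000696) and a ROS+++ mean of 72.3 CPM. Aldh18a1, the first enzyme of proline synthesis from glutamate, went from 115 ± 15.2 to 61.9 ± 7.67 CPM (SD, n = 5 each), a change of -0.88 on the log2 scale. Genes of the hypoxia list rose in 15 of 43 and fell in 5 (median 0.33). Its leaders are listed mural markers. Cox4i2, a hypoxia-regulated subunit of cytochrome oxidase, was at 2.05, 0, 1.03, 1.45 and 0.0469 CPM in the ROS+ libraries and at 247, 124, 122, 200.2 and 136 CPM in the ROS++ libraries. Cox4i2 was highest in ROS++ 1, with no overlap of the classes. Cox4i2 changed by 6.53 ± 0.29 (SE, log2 scale, adjusted p = 7.76e-11), with a ROS+++ mean of 738 CPM. Ndufa4l2, a target of hypoxia-inducible factors, went from 4.11 ± 4.52 to 279 ± 101 CPM (SD, n = 5 each), a change of 6.15 on the log2 scale. Bnip3l, a mitophagy receptor, was at 302, 285, 270.0, 254 and 262 CPM in the ROS+ libraries and at 191, 202, 177, 218 and 162 CPM in the ROS++ libraries. Bnip3l lay below its ROS+ range in all 5 ROS++ libraries, with ROS+ 1 the highest of the 10. Bnip3l had a change of -0.53 ± 0.11 on the log2 scale (SE, adjusted p = 0.00167) and a ROS+++ mean of 183 CPM. Slc2a3, the neuronal glucose transporter, fell by 0.74 and was lost without ROS+ 3 (adjusted p = 0.0172, and 0.00502 to 0.0553 over the alternatives). Vhl (-0.61), Car12 (-1.15) and Bnip3 (-0.35) were the others, and 1 fell without ROS+ 3 and 3 fell without ROS+ 1, ROS+ 2, ROS+ 5, ROS++ 1, ROS++ 3 or ROS++ 4.

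Clock genes rose in 10 of 28 and fell in 2 (median 0.39). Dbp, a D-box factor under clock control, was at 4.58, 2.02, 3.57, 2.26 and 2.02 CPM in the ROS+ libraries and at 17.7, 12.3, 15.9, 20.9 and 16.7 CPM in the ROS++ libraries. For Dbp the class ranges did not meet, and ROS++ 4 was the highest library. Dbp changed by 2.21 ± 0.27 (SE, log2 scale, adjusted p = 7e-06), with a ROS+++ mean of 45.1 CPM. Nr1d1, the clock repressor REV-ERB alpha, rose too. Cirbp, a cold-inducible RNA-binding protein, was at 339, 352, 393, 447 and 395 CPM in the ROS+ libraries and at 221, 214, 233, 229 and 253 CPM in the ROS++ libraries. Cirbp did not overlap between the classes, and ROS+ 4 was the highest library. Cirbp had a change of -0.74 ± 0.12 on the log2 scale (SE, adjusted p = 0.000109) and a ROS+++ mean of 185 CPM. Csnk1e (-0.69), a clock kinase, was the other fall. Nuclear receptors rose in 7 of 39 (median 0.08), near the background. Nr1h3, LXR alpha, a sterol sensor, was at 7.35, 6.10, 5.40, 3.96 and 3.57 CPM in the ROS+ libraries and at 122, 68.7, 58.5, 49.9 and 15.9 CPM in the ROS++ libraries. Nr1h3 was highest in ROS++ 1 and lowest in ROS+ 5, with no overlap of the classes. Nr1h3 changed by 3.13 ± 0.37 (SE, log2 scale, adjusted p = 3.84e-06), with a ROS+++ mean of 266 CPM. Nr1d1, counted in both lists, was at 106, 92.4, 92.2, 63.1 and 70.7 CPM in the ROS+ libraries and at 248, 217, 136, 268 and 124 CPM in the ROS++ libraries. Nr1d1 lay above its ROS+ range in all 5 ROS++ libraries, with ROS++ 4 the highest of the 10. Nr1d1 had a change of 1.17 ± 0.20 on the log2 scale (SE, adjusted p = 0.000225) and a ROS+++ mean of 586 CPM. Thra, thyroid hormone receptor alpha, was at 52.2, 53.00, 47.9, 59.98 and 64.04 CPM in the ROS+ libraries and at 26.1, 45.3, 42.8, 37.2 and 34.2 CPM in the ROS++ libraries. For Thra the class ranges did not meet, and ROS+ 5 was the highest library. Thra changed by -0.58 ± 0.18 (SE, log2 scale, adjusted p = 0.0236), with a ROS+++ mean of 34.5 CPM. Rarb, a retinoic acid receptor, fell by 1.00. Thra was lost without ROS+ 4, ROS+ 5 or ROS++ 1 (adjusted p = 0.0236, and 0.0165 to 0.0668 over the alternatives) and Rarb in 10 alternatives (adjusted p = 0.0437, and 0.0164 to 0.107 over the alternatives; lost without ROS+ 1, 2 or 3 or ROS++ 1, 2 or 4). Retinoid and thyroid hormone handling had 9 rises and 6 falls of 30 (median 0.13), 3 falls without ROS+ 5. Rdh5, a retinol dehydrogenase, was at 8.14, 7.39, 10.5, 7.33 and 7.37 CPM in the ROS+ libraries and at 64.9, 24.9, 33.9, 43.3 and 28.4 CPM in the ROS++ libraries. Rdh5 did not overlap between the classes, and ROS++ 1 was the highest library. Rdh5 had a change of 2.06 ± 0.25 on the log2 scale (SE, adjusted p = 5.66e-06) and a ROS+++ mean of 132 CPM. Dhrs3, a retinaldehyde reductase, went from 94.5 ± 25.7 to 253 ± 57.00 CPM (SD, n = 5 each), a change of 1.42 on the log2 scale. Fabp3, a fatty acid-binding protein, was at 17.5, 17.1, 19.4, 17.7 and 24.8 CPM in the ROS+ libraries and at 1.31, 6.39, 3.79, 2.45 and 7.64 CPM in the ROS++ libraries. Fabp3 was highest in ROS+ 5 and lowest in ROS++ 1, with no overlap of the classes. Fabp3 changed by -2.08 ± 0.37 (SE, log2 scale, adjusted p = 0.000332), with a ROS+++ mean of 0.542 CPM. Rdh13, a mitochondrial retinol dehydrogenase, went from 275 ± 37.8 to 180.2 ± 16.8 CPM (SD, n = 5 each), a change of -0.60 on the log2 scale.

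The Hedgehog and cilium list gave 9 rises and 4 falls of 54 (median 0.18), near the background, with 2 falls without ROS+ 2, ROS+ 3 or ROS++ 2. Gli1, a transcriptional target of Hedgehog, was at 0.079, 0, 0, 0.597 and 0 CPM in the ROS+ libraries and at 7.65, 7.41, 10.9, 10.9 and 1.91 CPM in the ROS++ libraries. Gli1 lay above its ROS+ range in all 5 ROS++ libraries, with ROS++ 4 the highest of the 10. Gli1 had a change of 2.82 ± 0.40 on the log2 scale (SE, adjusted p = 3.58e-05) and a ROS+++ mean of 5.53 CPM. Ift43, an intraflagellar transport protein, went from 37.3 ± 5.17 to 87.7 ± 22.3 CPM (SD, n = 5 each), a change of 1.18 on the log2 scale. Ift46, another such protein, was at 213, 209.7, 219, 210.0 and 216 CPM in the ROS+ libraries and at 121, 122, 133, 123 and 142 CPM in the ROS++ libraries. For Ift46 the class ranges did not meet, and ROS+ 3 was the highest library. Ift46 changed by -0.73 ± 0.10 (SE, log2 scale, adjusted p = 1.8e-05), with a ROS+++ mean of 76.1 CPM. Bbs4, a BBSome subunit, went from 107 ± 7.05 to 55.1 ± 25.9 CPM (SD, n = 5 each), a change of -1.08 on the log2 scale. Arl13b (-0.73) and Inpp5e (-0.68), which set the lipid and protein content of cilia, were the other falls. Imprinted genes had 8 rises and 6 falls of 39 (median -0.23). Igf2, an insulin-like growth factor, a listed fibroblast marker, was at 2.25, 0.048, 0.0446, 1.36 and 0.0469 CPM in the ROS+ libraries and at 21.00, 64.6, 54.8, 32.9 and 30.4 CPM in the ROS++ libraries. Igf2 did not overlap between the classes, and ROS++ 2 was the highest library. Igf2 had a change of 4.64 ± 0.37 on the log2 scale (SE, adjusted p = 3.93e-08) and a ROS+++ mean of 140.1 CPM. Cd81, a tetraspanin, went from 1733 ± 189 to 2781 ± 141 CPM (SD, n = 5 each), a change of 0.69 on the log2 scale. Inpp5f, a phosphoinositide phosphatase with an imprinted isoform, was at 1308, 1669.7, 1685, 1348 and 1875 CPM in the ROS+ libraries and at 388, 357, 278, 292 and 583 CPM in the ROS++ libraries. Inpp5f was highest in ROS+ 5 and lowest in ROS++ 3, with no overlap of the classes. Inpp5f changed by -2.09 ± 0.18 (SE, log2 scale, adjusted p = 8.46e-08), with a ROS+++ mean of 105 CPM. Snrpn, a spliceosome protein expressed from the paternal allele, went from 303 ± 14.5 to 159 ± 26.95 CPM (SD, n = 5 each), a change of -0.95 on the log2 scale. The data do not resolve alleles.

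Host transcripts of miRNAs carry the sequences that a reader can look up against target sites, so their guide strands are shown. MicroRNAs are cut from hairpins inside longer transcripts and bind targets mainly through a seed, bases 2 to 8. The libraries measure the host transcript and not the mature miRNA. Of 508 host genes tested, 80 rose and 76 fell, shares near the background. Non-coding hosts called in either direction, with no overlap between the classes and at least 5 CPM in the higher class, are followed here. This choice was made after their values were seen, so the lack of overlap is no result. Mature sequences are from RefSeq on GRCm38.p6, with the seed in capitals.
miR-137-3p: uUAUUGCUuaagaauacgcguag
miR-9-5p: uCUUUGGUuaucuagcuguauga
miR-99a-5p: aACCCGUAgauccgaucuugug
let-7c-5p: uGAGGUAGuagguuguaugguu
miR-101a-3p: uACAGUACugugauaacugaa
miR-22-3p: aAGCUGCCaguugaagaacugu
miR-223-3p: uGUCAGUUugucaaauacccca

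No 2 of these 7 share a seed. The host of miR-137, an miRNA of neural differentiation, was Gm26871, at chr3:118430324-118530022 on the plus strand, with the hairpin at chr3:118433857-118433929 (mm10). It was at 43.97, 51.7, 59.8, 45.7 and 68.96 CPM in ROS+ and 1.20, 5.04, 10.2, 8.74 and 9.66 CPM in ROS++, a change of -2.98 ± 0.50 (SE, adjusted p = 0.000185), with a ROS+++ mean of 1.69 CPM. The host of miR-9-2, C130071C03Rik (chr13:83721381-83884194), fell. It was at 259, 266, 266, 221 and 269.6 CPM in ROS+ and 101, 113, 141, 135 and 186 CPM in ROS++, a change of -0.94 ± 0.31 (SE, adjusted p = 0.0265), with a ROS+++ mean of 22.9 CPM. Its call was lost in 6 alternatives (adjusted p = 0.0265, and 0.000193 to 0.0699 over the alternatives; lost without ROS+ 2, 3 or 5 or ROS++ 1 or 2). Mir99ahg (chr16:77236317-77773427) carries miR-99a and let-7c-1. It was at 616, 733, 829.8, 581 and 741 CPM in ROS+ and 265, 358, 484, 442 and 414 CPM in ROS++, a change of -0.85 ± 0.17 (SE, adjusted p = 0.00103), with a ROS+++ mean of 270.0 CPM. E130102H24Rik, the host of miR-101a (chr4:101346531-101356735), lost its call without any of 6 libraries (ROS+ 2, 3 or 5 or ROS++ 1, 3 or 4; adjusted p = 0.0324, and 0.0182 to 0.0825 over the alternatives). It was at 28.6, 40.5, 37.95, 28.99 and 36.7 CPM in ROS+ and 20.6, 26.1, 16.8, 19.01 and 28.05 CPM in ROS++, a change of -0.63 ± 0.21 (SE, adjusted p = 0.0324), with a ROS+++ mean of 31.7 CPM. A further host, 2610307P16Rik of miR-6368, whose sequence is not shown, fell by 1.40, and its ROS+++ mean was 28.3 CPM against 23.3 in ROS+ and 8.46 in ROS++. The hosts Mir22hg and F630028O10Rik rose. Mir22hg lies at chr11:75461539-75466676. It was at 6.48, 16.3, 10.1, 10.1 and 6.33 CPM in ROS+ and 56.7, 32.9, 39.8, 25.2 and 25.9 CPM in ROS++, a change of 1.78 ± 0.27 (SE, adjusted p = 8.2e-05), with a ROS+++ mean of 58.96 CPM. F630028O10Rik, at chrX:96239926-96243636, hosts miR-223, which is abundant in myeloid cells. It was at 0.079, 0, 0, 0 and 0 CPM in ROS+ and 3.14, 8.85, 13.3, 1.94 and 1.86 CPM in ROS++, a change of 2.43 ± 0.42 (SE, adjusted p = 0.000274), with a ROS+++ mean of 5.27 CPM. The annotation places it antisense to another gene, and use of strand in counting is not given in the sources used here. Macrophage markers also summed to more in ROS++, and their part was not tested. Within ROS++, F630028O10Rik was at 8.85 CPM in ROS++ 2, where this sum was lowest, and at 3.14 CPM in ROS++ 1, where it was highest. Of its ROS+ libraries, 4 of 5 held no read, where a count of 0 allows 3 reads (0.128 to 0.144 CPM, counting error only).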

How the data were processed

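RNA of sorted GFP-positive dentate gyrus cells was measured in 14 libraries, and replicate numbers follow the order of the samples. The deposited table holds log2 values for 15119 genes. Build mm10 and the tools STAR and edgeR are named, without their roles, in text per the submitters' processing notes. In the deposited table each log2 value proved to be a read count scaled by library size, once a prior was taken off, and all then came out whole within 0.01 reads. From these reads CPM and log2(CPM + 1) were computed. Genes under 1 CPM in all but 3 or fewer libraries were removed, leaving 15102 of 15119 (17 removed). A single model with a mean per class covered all 14 libraries, fitted with limma 3.58.1 (trend and robust moderation, statmod 1.5.0, R 4.3.3) and 11 residual degrees of freedom. The threshold for a call was an adjusted p (Benjamini-Hochberg, all genes tested) under 0.05. The procedure was tested on simulated data with the mean levels and spread of ROS+ and few changed genes. The wider spread of ROS++ and the many genes called here were not simulated. Depth, 18325361 to 25313902 reads per library in both classes compared, limits precision for genes with few reads. Without molecular identifiers, intervals for a count of 0 (3 reads) cover counting error only. No pair of libraries was a repeated run, since chi-square per degree of freedom was at least 34.0.

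The members, the 34 functional and 7 marker lists, the gene pairs and the rules were chosen with earlier results of these data known. Named genes were of 4 kinds. The first are the 15 largest changes each way outside the markers, called, not overlapping and at 10 CPM or more in the higher class. The second are the 2 members of lowest adjusted p per list and direction, called, not overlapping and at 5 CPM or more in the higher class. The others are the pairs called in opposite directions, and the 8 largest gains and losses in mean CPM. Symbols and coordinates came from GENCODE annotation of GRCm38, matched for 15060 genes. Alternatives covered 2 pseudocounts, the deposited values, filters, scaling, limma-voom, the 10 libraries alone, moderation and leaving out each library. Promoter windows were not used, since fewer than 80% of the genes had one. Some items that these rules select are not reported here.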

Additional observations from a re-analysis of the deposited data

Results flagged for a closer look

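In each of 344 groups of 5 libraries (the named genes, the library totals and the marker sums of both classes), the highest or lowest library was compared with the others, and 26 lay so far from the nearest of them, relative to the range, that the gap passed the 95% limit for 5 values. Chance alone gives about 1 group in 20.

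Genes with large rises come first. Csf1r was at 63.3 CPM in ROS++ 2, below the other 4 at 132 to 177. In ROS+ 3, C3ar1 held 2.19 CPM, above 0.0395 to 0.256 in the rest of its class. C3ar1 stood at 49.7 CPM in ROS++ 2, against 132 to 174 in the other 4. Nid1 was at 4.98 CPM in ROS+ 1, above the other 4 at 0.134 to 0.554. In ROS+ 5, Cd53 held 1.08 CPM, above 0 to 0.0426 in the rest of its class. Rgs4 stood at 24.1 CPM in ROS+ 1, against 4.95 to 7.36 in the other 4. Slc38a11 was at 4.54 CPM in ROS+ 1, above the other 4 at 0.0469 to 0.554. In ROS+ 1, Nts held 3.83 CPM, above 0 to 0.0853 in the rest of its class.

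Other named genes follow, from signalling, transcription and neuronal lists. Gli1 stood at 0.597 CPM in ROS+ 4, against 0 to 0.079 in the other 4. Gli1 was at 1.91 CPM in ROS++ 5, below the other 4 at 7.41 to 10.9. In ROS+ 1, Mef2c held 18.8 CPM, below 26.4 to 29.8 in the rest of its class. Pde8b stood at 37.2 CPM in ROS+ 3, against 52.6 to 57.7 in the other 4. Rdh5 was at 10.5 CPM in ROS+ 3, above the other 4 at 7.33 to 8.14. In ROS++ 4, Stx4a held 62 CPM, below 77 to 81.8 in the rest of its class. Gnb1 stood at 1826 CPM in ROS++ 2, against 2137 to 2276 in the other 4. St8sia2 was at 0.209 CPM in ROS++ 1, below the other 4 at 8.21 to 12.7. In ROS+ 1, Ntf3 held 7.27 CPM, below 14.3 to 17.6 in the rest of its class. Cntnap5a stood at 0.89 CPM in ROS++ 1, against 0.0426 to 0.153 in the other 4. Rai14 was at 33.7 CPM in ROS+ 3, above the other 4 at 15.9 to 18.2. In ROS++ 4, Syt2 held 2.81 CPM, above 0.107 to 0.471 in the rest of its class. Gal stood at 4.4 CPM in ROS++ 2, against 0 to 0.0511 in the other 4.

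The remaining values describe libraries. ROS++ 3 held 23454022 reads, above the other 4 at 18325361 to 19566863. The summed microglia and macrophage markers were at 149 CPM in ROS+ 1, above the other 4 at 37.5 to 57.9. In ROS++ 5, the summed astrocyte and radial glia-like markers held 13284 CPM, below 16507 to 17208 in the rest of its class. The summed endothelial markers stood at 545 CPM in ROS+ 4, against 200.2 to 252 in the other 4. The summed endothelial markers were at 264 CPM in ROS++ 5, below the other 4 at 612 to 721.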

How the results depend on the processing

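No paired analysis was possible because the labels give no replicate numbers that the classes share. The titles carry library numbers that run on through repeated sets of the classes, but no label says that neighbouring numbers share mice, a sort or a day, and no block was built from this order. Under the 21 alternatives run, the counts of genes called and the 161 named genes kept their direction. The number of genes called ranged from 3634 to 4896, against 4476, and leaving out 1 library at a time gave 3634 to 4626 genes called and 2084 to 2579 called higher. Of 3374 values for named genes under alternatives, 51 lost the call, in 11 genes: C3ar1, Cxcl2, Snap23, Abce1, Thra, Stat3, Slc4a7, Slc2a3, Rarb, Mgat5b and Scn3b. Changes of low genes depend on the pseudocount. The median of the prostaglandin list was 1.28 with a pseudocount of 4 CPM and 2.67 by limma-voom, and that of the microglia and macrophage list 4.60 and 8.62. By limma-voom 20 of its 32 members were called higher, against 31. The oligodendrocyte list had 7 called higher, 4 by limma-voom and 11 without ROS++ 5. Causes were not tested. A count of 0 allows 3 reads, or 0.119 to 0.164 CPM per library in these classes, and lower levels rest on fewer reads than that.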
